A study of Mus musculus with 4 samples.

Results

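The mitochondrial genome encodes 37 genes, namely 13 mRNAs, 2 rRNAs and 22 tRNAs, and all 37 were present among the 48709 genes in the deposited counts of mouse liver. The members were chosen by gene symbol alone, as every gene whose symbol starts with mt-, and no read count entered that rule. The group was proposed with earlier results of these data known, so the adjusted p-values given for its members describe these libraries and are not independent support. Liver RNA of adult, untreated C57BL/6 mice was sequenced as 4 poly(A)-selected, stranded mRNA libraries, 2 from WT mice and 2 from mice labelled DDI2-KO. The DDI2-KO mice carry a floxed Ddi2 gene (Ddi2 flox/flox) together with Cre recombinase driven by the albumin promoter (AlbCre+), which is active in hepatocytes, so other liver cells keep the gene. The WT mice were littermates without Cre from the same floxed line. DDI2 is an aspartic protease that cleaves and activates the transcription factor NRF1, encoded by Nfe2l1. The study asked which liver genes depend on DDI2 without stress.

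Mitochondrial DNA is a small circular genome that is transcribed from both strands as long precursors. Most mRNAs and both rRNAs come from the precursor copied off the heavy strand, whereas mt-Nd6 and a minority of tRNAs come from the precursor copied off the light strand. The tRNAs lie between the other genes and are cut out, which releases the mRNAs. All 13 mRNAs encode subunits of the respiratory chain, the Nd genes for complex I, mt-Cytb for complex III, the Co genes for complex IV and the Atp genes for complex V. The remaining subunits, and all of complex II, are encoded in the nucleus. Hepatocytes are rich in mitochondria, and mitochondrial mRNAs are among the most abundant RNAs of liver.

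Nuclear chromosomes carry old copies of mitochondrial DNA, and most members that match such a copy over nearly their whole length had almost no reads. Of the 13 mRNAs, 6 had at most 2 reads in any library. The counts of mt-Co2, mt-Atp8, mt-Co3 and mt-Nd4l were 0 in all 4 libraries, mt-Atp6 had 2 reads in WT library 2, and mt-Nd3 had 1 read in WT library 1. A floor of 3 reads corresponded to between 0.0880 and 0.133 reads per 1000000 reads on genes in these libraries, counting error only. These 6 genes encode subunits of cytochrome c oxidase, ATP synthase and complex I that respiring cells need, so the counts were not read as their level in liver. They are neighbours on the mitochondrial genome, and 7 annotated pseudogenes with contiguous matches lie in the reverse orientation on chromosome 1 of GRCm38, from 24611535 to 24616197. Their matches lie within chrM:6394-11042, a span of 4649 bases that also holds the gaps between them.

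The match was measured as the share of all 50-base stretches of a gene that also occur in an annotated transcript of a nuclear gene. It was 100% for mt-Co2, 99.5% for mt-Atp6, 99.9% for mt-Co3, 98.0% for mt-Nd3 and 98.8% for mt-Nd4l. The pseudogene Gm28661, named after its values were seen like the other copies on chromosome 1, matches bases 1 to 681 of the 684 bases of mt-Co2 without a difference, and Gm28437 matches bases 1 to 783 of the 784 bases of mt-Co3. For mt-Atp8 the share was 0%, although it too had no reads. No pseudogene is annotated for mt-Atp8, but it lies between mt-Co2 and mt-Atp6, which are 230 bases apart on the mitochondrial genome, and their copies Gm28661 and Gm10925 are 233 bases apart on chromosome 1. The sequence between these copies was not analysed here. Together the 7 copies on chromosome 1 held 1 counted read, on Gm29216 in library 2 labelled DDI2-KO. Reads that align equally well to a copy and to a mitochondrial gene are counted on neither, so this does not show their origin. The counting left out alignments that were not unique. Per 100 reads on genes these numbered 65.8 and 51.8 in WT, and 49.2 and 47.3 in those labelled DDI2-KO. How many of those came from mitochondrial genes was not tested.

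The copy on chromosome 1 begins inside mt-Co1 and ends inside mt-Nd4, so each of these mRNAs has a shared part and a part of its own. The counts are of whole genes, and how reads were spread over these parts was not tested. The sequences at both edges of the copy on chromosome 1 are shown because they mark where the sequence shared with it begins and ends. The bases that mt-Atp8 shares with mt-Atp6 are shown because they belong to both genes. All are on the plus strand of the mitochondrial genome in GRCm38, 5′ to 3′, and were read from the GENCODE transcripts. In the mt-Co1 line, chrM:6364-6423, the capitals are the first 30 bases that the copy also holds. In the mt-Nd4 line, chrM:11013-11072, the capitals are the last 30 bases of the copy. In the mt-Atp8 line, chrM:7918-7969, the capitals are the 43 bases that belong both to the end of mt-Atp8 and to the start of mt-Atp6, which are carried on the same RNA.
mt-Co1: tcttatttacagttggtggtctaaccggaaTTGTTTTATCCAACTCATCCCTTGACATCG
mt-Nd4: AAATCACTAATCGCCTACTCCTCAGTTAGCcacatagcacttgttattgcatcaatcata
mt-Atp8: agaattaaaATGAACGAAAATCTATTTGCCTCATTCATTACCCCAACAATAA

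The other 7 mRNAs were counted, and the nuclear copies share their sequence to different degrees. The shared part was 0% for mt-Nd1, mt-Nd6 and mt-Cytb, 8.19% for mt-Nd2, 7.61% for mt-Nd5, 51.1% for mt-Co1 and 62.2% for mt-Nd4. With stretches of 100 bases it was 30.8% for mt-Co1, 60.8% for mt-Nd4 and 0% for mt-Nd5. Both groups were counted in the same way, and WT and DDI2-KO are compared gene by gene. Whether alignments that were not unique took the same part of each mRNA in both groups was not tested. Levels of different genes are given below with and without the shared length.

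**Figure D1:**
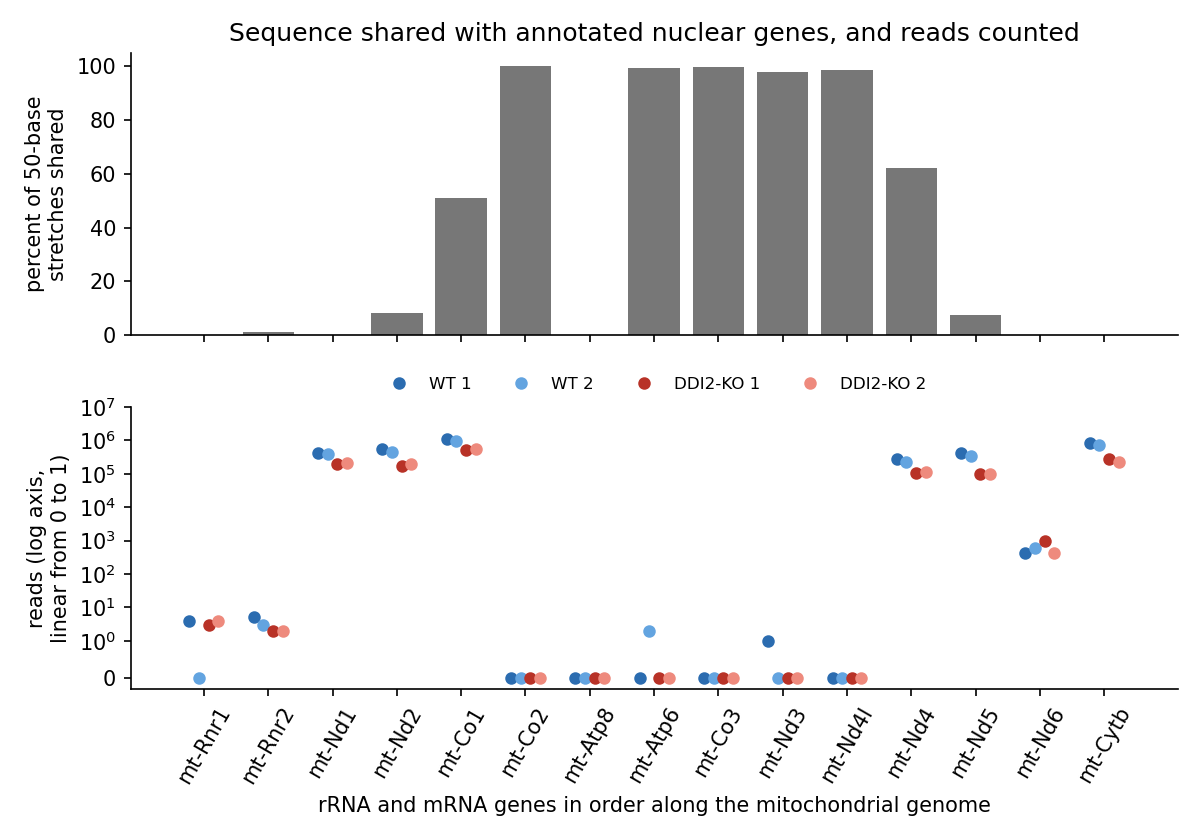
The upper bars give the percent of 50-base stretches that also occur in annotated nuclear transcripts, and the points below give reads per library on a log axis that is linear from 0 to 1, for the 15 rRNA and mRNA genes in genome order. The 6 mRNAs with at most 2 reads lie side by side, and 5 of them have a share of at least 98.0%.

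Both rRNAs were close to 0. The small rRNA mt-Rnr1 had 4 reads in WT library 1, 0 in WT library 2, and 3 and 4 in those labelled DDI2-KO, while the large rRNA mt-Rnr2 had 5 and 3 against 2 and 2. Shared sequence was 0% for mt-Rnr1 and 1.04% for mt-Rnr2, so their low counts went without shared sequence, unlike those of most mRNAs near 0. Mitochondrial rRNAs are the most abundant transcripts of the organelle and carry short tails at most, so counts from a poly(A)-selected library were not read as their level. What gave the low counts was not tested. No fold is given, since all these counts lie near the floor of 3 reads.

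Reads on mitochondrial genes made up 10.5% of all reads on genes in WT library 1 (exact binomial 95% interval 10.50 to 10.52, counting error only) and 9.91% in WT library 2 (9.896 to 9.917). In the libraries labelled DDI2-KO they made up 5.27% (5.266 to 5.283) and 6.34% (6.325 to 6.345). Both libraries labelled DDI2-KO lay below both WT libraries. The mean was 10.2% ± 0.426 (SD, n = 2) in WT and 5.80% ± 0.750 (SD, n = 2) in those labelled DDI2-KO, a difference of -4.40 percentage points, which exceeds the spread within either group. With 2 libraries against 2, an exact two-sided permutation test cannot give a p below 0.333, the value found here. Measured against all lines of the files, including reads without a gene and alignments that were not unique, the difference was -2.40 percentage points. Of the mitochondrial reads, at least 99.96% in every library were on mRNAs.

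**Figure D2:**
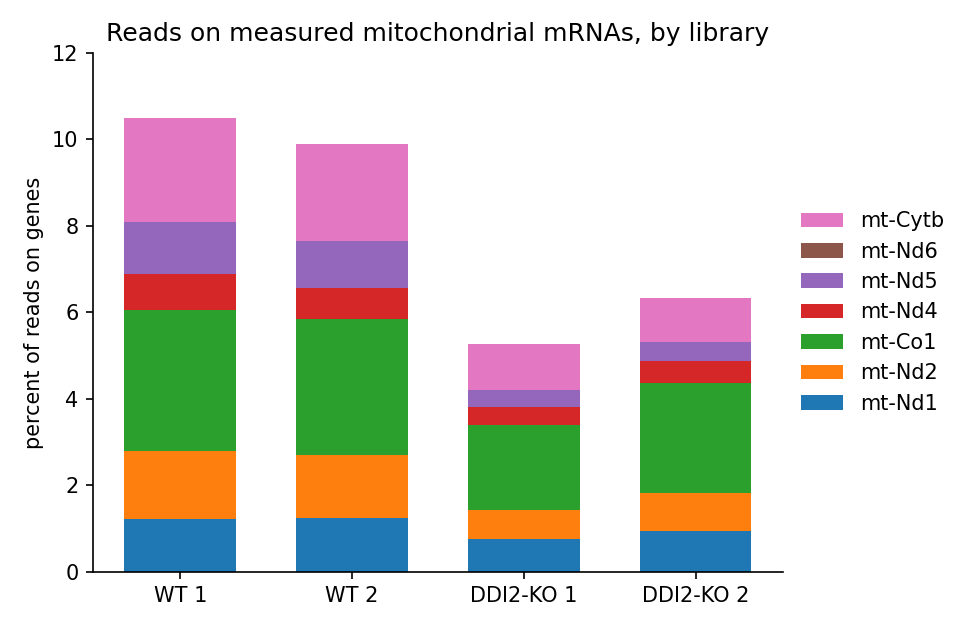
Stacked bars give the percent of reads on genes that fell on each of the 7 measured mitochondrial mRNAs, 1 bar per library. The WT bars reach 10.5% and 9.90%, and those labelled DDI2-KO reach 5.27% and 6.33%, with mt-Co1 and mt-Cytb the largest segments in WT.

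Expression is given below as CPM, counts per 1000000 of the library size as scaled by edgeR's TMM method, and changes as log2 fold changes of DDI2-KO over WT with a standard error (SE). Genes were tested with the quasi-likelihood method of edgeR and Benjamini-Hochberg adjustment, over the 13699 genes that passed its filter on low counts. Of the 37 members, 11 passed the filter, 7 mRNAs and 4 tRNAs. Among them 3 were called lower in the libraries labelled DDI2-KO at an adjusted p under 0.05, mt-Nd2, mt-Nd5 and mt-Cytb, and none was called higher. Over all genes tested, 2.53% were called, 1.20% lower and 1.33% higher. When upper-quartile factors replaced TMM, 191 of 317 calls over all genes were lower, against 164 of 346, and the same 3 members were called. In 6 of the 7 mRNAs both libraries labelled DDI2-KO lay below both WT libraries, as they did for 27.7% of all genes tested. Groups that do not overlap in either direction were found for 55.7% of genes, so with 2 libraries against 2 they are common. The log2 fold changes of the 7 mRNAs had a median of -0.79, against -0.015 over all genes tested. The other 26 members were not tested, so these values describe the tested members and not all 37. Liver is a mixture of cells, and fewer cells rich in mitochondria cannot be told apart from less mitochondrial RNA per cell.

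Complex I, which oxidises NADH, had 5 tested mRNAs of 7. The largest change was in mt-Nd5 (ENSMUSG00000064367, chrM:11742-13565), which encodes a proton-pumping subunit of the membrane arm. Its 408119 and 341330 reads in WT corresponded to 12133 and 11042 CPM, and its 97350 and 101195 reads in those labelled DDI2-KO to 3759 and 4401 CPM. The groups lay far apart, with the lower WT library at more than 2-fold the higher library labelled DDI2-KO. The log2 fold change was -1.51 (SE 0.18, adjusted p = 0.0166 from edgeR), or 2.84-fold lower, and mt-Nd5 was called in each of the 15 alternative analyses.

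The membrane-arm subunit mt-Nd2 (ENSMUSG00000064345, chrM:3914-4951) had 15939 and 14893 CPM in WT and 6559 and 8774 CPM in those labelled DDI2-KO. These groups did not overlap either. The log2 fold change was -1.01 (SE 0.19, adjusted p = 0.0437 from edgeR), and the call was lost with limma-voom (adjusted p = 0.0591), limma-trend (0.0898), without robust estimation (0.0570), without WT library 1 (0.0727) and without library 1 labelled DDI2-KO (0.102). The further subunits mt-Nd4 and mt-Nd1 did not pass the threshold. For mt-Nd4 the values were 8294 and 7269 CPM in WT and 4152 and 4825 CPM in those labelled DDI2-KO, for a log2 fold change of -0.79 (SE 0.18, adjusted p = 0.0571 from edgeR). It was called in 3 of 15 alternatives, among them DESeq2 (adjusted p = 0.00318) and edgeR without the filter on low counts (0.00600). For mt-Nd1, which joins the membrane arm to the matrix arm, they were 12347 and 12784 CPM against 7616 and 9196 CPM, a log2 fold change of -0.58 (SE 0.17, adjusted p = 0.102 from edgeR), and DESeq2 called it (0.0499). Both genes had each library labelled DDI2-KO below each WT library, as did 27.7% of all genes tested.

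Complex III, which passes electrons to cytochrome c, has mt-Cytb (ENSMUSG00000064370, chrM:14145-15288) as its one mitochondrially encoded subunit. It had 24569 and 23010 CPM in WT and 10527 and 9928 CPM in those labelled DDI2-KO. The 2 libraries of each group were close to each other and the groups did not overlap. The log2 fold change was -1.22 (SE 0.16, adjusted p = 0.0189 from edgeR), or 2.33-fold lower, and limma-trend was the alternative that lost the call (adjusted p = 0.0663).

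Complex IV, cytochrome c oxidase, was represented by mt-Co1 (ENSMUSG00000064351, chrM:5328-6872), which encodes its catalytic core, since mt-Co2 and mt-Co3 had no reads. With 33242 and 32016 CPM in WT and 19439 and 24831 CPM in those labelled DDI2-KO, mt-Co1 was the member with the most reads in every library. The groups did not overlap, but the libraries labelled DDI2-KO were spread more widely. The log2 fold change was -0.56 (SE 0.18, adjusted p = 0.116 from edgeR), which did not pass the threshold in any of the 15 alternatives. Complex V could not be compared, as mt-Atp6 and mt-Atp8 had 2 reads in all.

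**Figure D3:**
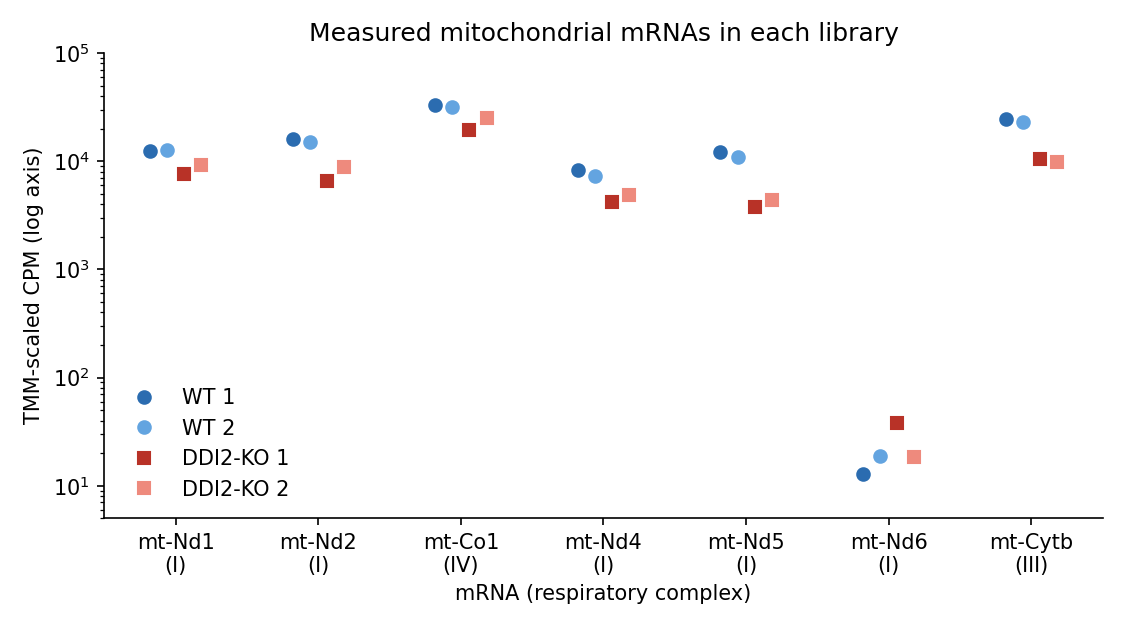
Points give TMM-scaled CPM on a log axis for each of the 7 measured mRNAs in each of the 4 libraries, with the respiratory complex in brackets. In 6 mRNAs both WT libraries lie above both libraries labelled DDI2-KO, a position found for 27.7% of all genes tested, whereas in mt-Nd6 the groups overlap.

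Ratios between the 6 mRNAs copied off the heavy strand mostly lay apart in the 2 groups. Read counts of pairs of mRNAs were divided within each library, which removes library size and scaling. There were 0.983 and 0.864 reads on mt-Nd5 per read on mt-Nd1 in WT, and 0.494 and 0.479 in those labelled DDI2-KO. For mt-Cytb per mt-Nd1 the ratios were 1.99 and 1.8 against 1.38 and 1.08. For mt-Nd5 per mt-Nd4, its upstream neighbour among the mRNAs, they were 1.46 and 1.52 against 0.905 and 0.912. In contrast, mt-Co1 per mt-Nd1 was 2.69 and 2.5 in WT and 2.55 and 2.70 in those labelled DDI2-KO, and these overlapped. Of 7 such ratios between heavy-strand mRNAs, 6 did not overlap between the groups, nor did that of mt-Nd6 to mt-Nd5, the other one computed. Each of these had an exact two-sided permutation p of 0.333, the smallest that 2 against 2 allows, and 0.381 after Benjamini-Hochberg adjustment over the 8. Among single genes tested, 55.7% had groups that do not overlap, and the share for ratios of other gene pairs was not computed. The ratios reuse the same mRNAs, most with mt-Nd1 as denominator, so they are not separate observations. Within the mitochondrial reads, mt-Co1 took 31.2% and 31.7% in WT and 37.3% and 40.0% in those labelled DDI2-KO, whereas mt-Nd5 took 11.4% and 10.9% against 7.21% and 7.10%. Along the heavy-strand precursor the mRNAs follow in the order mt-Nd1, mt-Nd2, mt-Co1, mt-Nd4, mt-Nd5 and mt-Cytb, and their log2 fold changes in that order were -0.58, -1.01, -0.56, -0.79, -1.51 and -1.22, with no steady trend.

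The order of levels depends on the length that is counted. As CPM per kilobase of gene in WT, mt-Co1 had 21119 ± 561 (SD, n = 2) and mt-Cytb 20795 ± 964 (SD, n = 2), which did not differ beyond their spread. They were followed by mt-Nd2 with 14852 ± 712, mt-Nd1 with 13130 ± 322, mt-Nd5 with 6353 ± 423 and mt-Nd4 with 5647 ± 526, and the last pair did not differ beyond their spread. When only 100-base stretches absent from annotated nuclear transcripts were counted as length, mt-Nd4 had 15501 ± 1443 CPM per 1000 stretches (SD, n = 2), which put it between mt-Nd2 (16959 ± 813) and mt-Nd1 (14645 ± 360) and within the spread of each. On that scale mt-Co1 had 32629 ± 866 and led mt-Cytb with 22765 ± 1055. In the libraries labelled DDI2-KO the same scale gave 22135 ± 3812 for mt-Co1, and mt-Nd1 (9798 ± 1302), mt-Cytb (9787 ± 405), mt-Nd4 (8942 ± 948) and mt-Nd2 (8434 ± 1723) were not apart beyond their spread. The lowest of the heavy-strand mRNAs on that scale was mt-Nd5 in both groups, with 6717 ± 447 in WT and 2365 ± 263 in those labelled DDI2-KO.

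Transcripts copied off the light strand were rare, and mt-Nd6 and mt-Tp were the 2 that passed the filter. Of these, mt-Nd6 was not called. The mRNA mt-Nd6 (ENSMUSG00000064368, chrM:13552-14070), a complex I subunit whose mRNA is known for having little or no poly(A) tail, had 431 and 584 WT reads, against 993 and 427 in those labelled DDI2-KO. This was 12.8 and 18.9 CPM against 38.3 and 18.6 CPM, so the groups overlapped and library 1 labelled DDI2-KO stood above the other 3 libraries. The log2 fold change was 0.85 (SE 0.38, adjusted p = 0.243 from edgeR), and without that library it was 0.23. Per read on mt-Nd5, mt-Nd6 had 0.00106 and 0.00171 WT reads, against 0.0102 and 0.00422 in those labelled DDI2-KO. The heavy-strand precursor runs through the mt-Nd6 locus in the opposite direction, and whether the counting used strand is not given in the sources used here, so reads of both strands cannot be told apart with certainty.

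The tRNAs, which carry amino acids to the mitochondrial ribosome, are between 59 and 75 bases long in the annotation, carry no poly(A) tail when mature and were near the limit of these libraries. Of the 22, 13 had no reads in any library, 4 had a mean under 10 reads, and 5 had a mean of at least 10. The isoleucine tRNA mt-Ti had 478 and 410 WT reads, against 155 and 339 in those labelled DDI2-KO, for a log2 fold change of -0.41 (SE 0.40, adjusted p = 0.589 from edgeR). Its CPM overlapped between the groups, and the sign turned on single libraries, with a log2 fold change of 0.11 without library 1 labelled DDI2-KO (adjusted p = 0.771) and -1.19 without library 2 of that label (adjusted p = 0.0299). The tryptophan tRNA mt-Tw had 142 and 135 reads against 127 and 148 (log2 fold change 0.40, SE 0.24, adjusted p = 0.350), and the methionine tRNA mt-Tm had 43 and 33 against 26 and 24 (-0.20, SE 0.36, adjusted p = 0.784). These 3 lie on the heavy-strand precursor beside mt-Nd1 or mt-Nd2, and both mt-Ti and mt-Tw share 2 bases with the end of their mRNA neighbour.

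Among light-strand tRNAs, the proline tRNA mt-Tp, beside the control region, had 4 and 9 WT reads, against 26 and 29 in those labelled DDI2-KO. This was 0.119 and 0.291 CPM against 1.00 and 1.26 CPM, so the groups did not overlap although every value is small. The WT libraries alone would not have taken mt-Tp past the filter on low counts, which it passed through the libraries where it was high, so its log2 fold change of 2.45 (SE 0.54) is given with no test. The glutamine tRNA mt-Tq had 0 and 2 WT reads, against 5 and 33 in those labelled DDI2-KO and did not pass the filter. Over the 8 light-strand tRNAs together there were 4 and 13 reads in WT and 38 and 63 in those labelled DDI2-KO, which is 0.117 and 0.412 reads per 1000000 reads on genes against 1.49 and 2.80. The 14 heavy-strand tRNAs had 664 and 579 reads against 313 and 518, or 19.5 and 18.4 per 1000000 against 12.2 and 23.0, which overlapped.

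**Figure D4:**
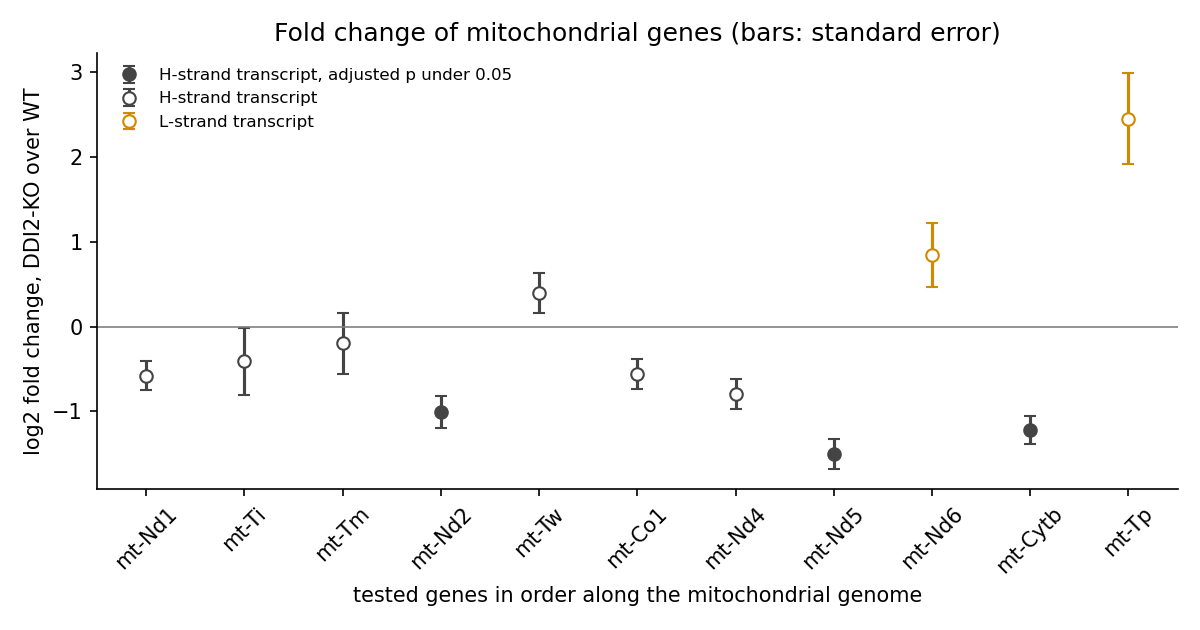
Points give the log2 fold change of DDI2-KO over WT for the 11 members that passed the filter, in genome order, with bars for 1 standard error. Filled points have an adjusted p under 0.05, which are mt-Nd2, mt-Nd5 and mt-Cytb, and the 2 light-strand genes mt-Nd6 and mt-Tp lie above 0.

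Nuclear copies outside chromosome 1 held few reads. Of 7 such genes in the counts that share 50-base stretches with members, 6 had any read. The most, 164 and 117 in WT and 29 and 36 in those labelled DDI2-KO, were on Gm13341, a pseudogene that resembles mt-Co2 on the minus strand of chromosome 2, 22587291 to 22587962. Its log2 fold change was -1.69 (SE 0.31, adjusted p = 0.0405 from edgeR), and the call was lost with limma-voom (0.0591), limma-trend (0.0553), without robust estimation (0.0529), without WT library 1 (0.148) and without library 1 labelled DDI2-KO (0.0682). Its neighbour Gm13340, which resembles mt-Co1, had 39 and 32 WT reads, against 36 and 25 in those labelled DDI2-KO (log2 fold change 0.18, SE 0.36, adjusted p = 0.807), and Gm4076, which resembles mt-Nd5, had 3 reads in all. Whether reads on these pseudogenes come from the nucleus or from mitochondrial RNA was not tested.

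Nuclear-encoded subunits of the same complexes were in the opposite direction where they were called. Of 84 listed subunits of complexes I to V, 78 were tested, and 8 rose in the libraries labelled DDI2-KO while none was called lower, which is to be read beside 1.33% of all genes called higher. The 8 were 3 subunits of complex I, 1 of complex III, 1 of complex IV and 3 of complex V. Cox5a, a subunit of complex IV, had 44.0 and 53.2 CPM in WT and 126 and 144 CPM in those labelled DDI2-KO, for a log2 fold change of 1.48 (SE 0.18, adjusted p = 0.0169 from edgeR). Atp5g3, which encodes the ring-forming subunit c of ATP synthase, had 92.2 and 116 CPM against 306 and 289 CPM, a log2 fold change of 1.51 (SE 0.19, adjusted p = 0.0184). In complex I, Ndufb6 (1.15, adjusted p = 0.0238) and Ndufc1 (1.19, adjusted p = 0.0337) rose, and in complex V the small subunit Atp5mpl did (0.98, adjusted p = 0.0337), all from edgeR. Without WT library 1, Ndufb6 (adjusted p = 0.0854 from edgeR), Ndufc1 (0.137) and Atp5mpl (0.167) were no longer called, nor were Ndufb6 (0.0753) and Atp5mpl (0.0616) without WT library 2. The other called subunits were Ndufs4 of complex I (0.76), Uqcrfs1, the Rieske iron-sulfur protein of complex III (1.04), and Atp5e of complex V (0.81). Their adjusted p-values from edgeR were 0.0472, 0.0337 and 0.0417. Whether these 3 kept their calls in the alternatives is not given gene by gene, and counts without a library follow below.

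By complex, the median log2 fold change of the tested nuclear subunits was 0.40 over 36 genes of complex I, 0.60 over 4 of complex II, 0.29 over 9 of complex III, 0.50 over 13 of complex IV and 0.61 over 16 of complex V. The mitochondrially encoded values beside them were a median of -0.79 over 5 genes of complex I, -1.22 for mt-Cytb in complex III and -0.56 for mt-Co1 in complex IV. Over all 78 nuclear subunits 65 log2 fold changes were above 0 and 13 below, while 6 of the 7 mitochondrial mRNAs were below 0. In summed expression, the 84 listed nuclear subunits had 6904 and 7900 CPM in WT and 11027 and 9712 CPM in those labelled DDI2-KO, against 106536 and 101033 CPM and 52092 and 61974 CPM for the 13 mitochondrial mRNAs. Neither sum overlapped between the groups. Leaving out a library changed the number of nuclear subunits called from 8 to 2 without WT library 1, 3 without WT library 2 and 15 without library 2 labelled DDI2-KO, none of them lower.

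**Figure D5:**
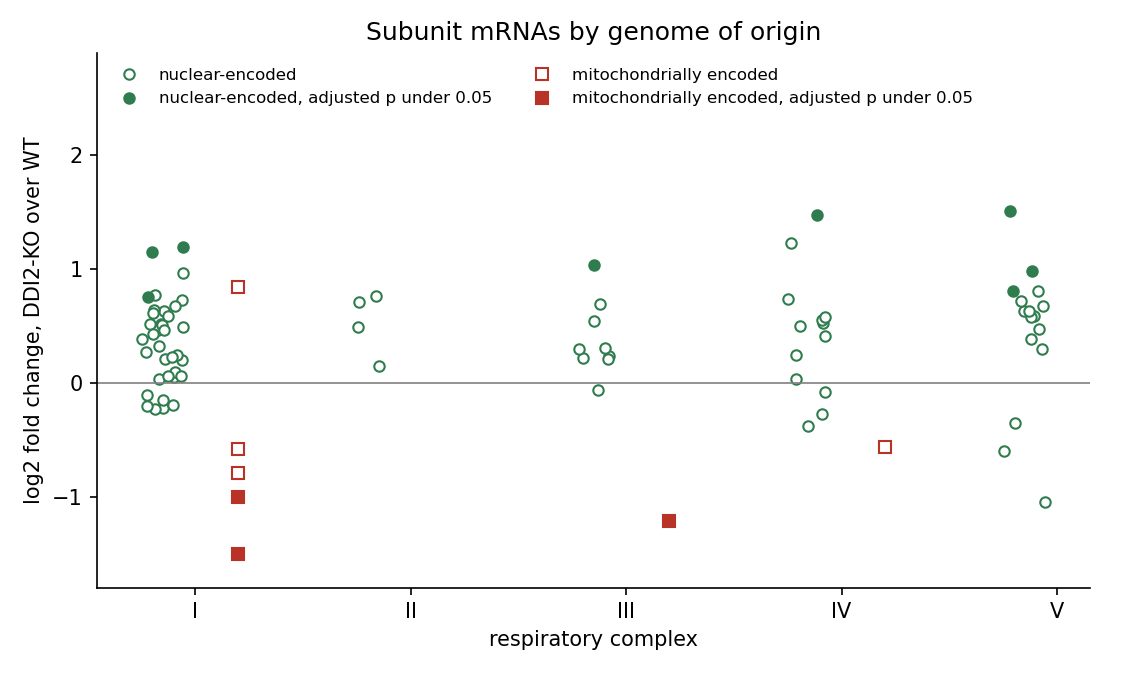
Each point is the log2 fold change of DDI2-KO over WT of 1 subunit mRNA, grouped by respiratory complex, with circles for nuclear-encoded and squares for mitochondrially encoded subunits and filled symbols for an adjusted p under 0.05. All 8 filled circles lie above 0 and all 3 filled squares below 0.

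Genes in the nucleus also copy, repair and process mitochondrial DNA and RNA. Of 63 such genes listed, all were tested, and 1 was called, beside 2.53% of all genes. This was Nsun4, an RNA methyltransferase of the mitochondrial ribosome, with 13 and 14.1 CPM in WT and 22.9 and 27.3 CPM in those labelled DDI2-KO, for a log2 fold change of 0.89 (SE 0.18, adjusted p = 0.0444 from edgeR) that 7 of 15 alternatives did not call, among them those without WT library 1 (adjusted p = 0.227), WT library 2 (0.139) or library 2 labelled DDI2-KO (0.0529). The median over the 63 was 0.14, with 40 above 0 and 23 below. The mitochondrial RNA polymerase Polrmt had 9.42 and 10.8 CPM in WT and 9.46 and 5.96 CPM in those labelled DDI2-KO (log2 fold change -0.39, SE 0.25, adjusted p = 0.391). Tfam, which packages mitochondrial DNA and starts its transcription, had 33.8 and 36.1 CPM against 52.3 and 56.0 CPM (0.63, SE 0.15, adjusted p = 0.0667). Lrpprc and Slirp, partners that stabilise mitochondrial mRNAs, had log2 fold changes of 0.29 (SE 0.16, adjusted p = 0.303) and 0.59 (SE 0.19, adjusted p = 0.120), all from edgeR. None of these 4 passed the threshold. Tfam was called in 3 of 15 alternatives, among them DESeq2 (adjusted p = 0.0340) and edgeR without the filter (0.0150).

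The 8 nuclear regulators of mitochondrial genes on that list had a median log2 fold change of -0.24 and the 10 genes of mitochondrial transcription one of -0.16, and none of either was called. Log2 fold changes were above 0 for 2 regulators and below 0 for 6, and for transcription 5 were above and 5 below. Members in both directions, named here after their values were seen, had groups that did not overlap, as 55.7% of all genes tested did. Among those higher were Tfb1m (10.3 and 9.16 CPM in WT against 11.8 and 12.1 CPM, adjusted p = 0.380 from edgeR) and Tefm (6.60 and 7.63 against 8.11 and 9.39 CPM, 0.424). Mterf3 (log2 fold change 0.39) and Tfam, given above, also lay higher without overlap. Among those lower were Mterf1a (log2 fold change -0.87), Mterf1b (-1.08), Mterf2 (-1.02) and Gabpa (-0.28). The 3 genes that follow were lower as well. Tfb2m, which opens mitochondrial promoters together with Polrmt, had 13 and 12.5 CPM in WT and 6.49 and 7.13 CPM in those labelled DDI2-KO (log2 fold change -0.90, SE 0.19, adjusted p = 0.0515 from edgeR). It was called in 5 of 15 alternatives, among them DESeq2 (adjusted p = 0.0228) and upper-quartile factors (0.0471). The coactivators of mitochondrial biogenesis Ppargc1a and Ppargc1b had log2 fold changes of -0.86 (SE 0.20, adjusted p = 0.0649) and -1.53 (SE 0.42, adjusted p = 0.0868), from 15.9 and 13.3 CPM to 7.38 and 8.79 CPM for Ppargc1a and from 3.33 and 4.24 CPM to 1.85 and 0.739 CPM for Ppargc1b. DESeq2 called both, with adjusted p-values of 0.0337 and 0.0367. Of 15 alternatives, 3 called Ppargc1a and 4 called Ppargc1b.

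Several library properties moved with the groups. Reads on genes numbered from 22501208 to 34109018, lower in both libraries labelled DDI2-KO. Reads that fell on no gene were 5.11 (WT library 1) and 4.70 (WT library 2) per 100 reads on genes, and 2.53 and 3.65 in those labelled DDI2-KO. Ambiguous reads were 2.5 and 2.54 against 3.49 and 3.66, and alignments that were not unique 65.8 and 51.8 against 49.2 and 47.3. Malat1 and Neat1, long RNAs that are kept in the nucleus, fell by 1.29 and by 1.78 on the log2 scale (adjusted p = 0.0223 and 0.0437 with edgeR), although Neat1 was not called without WT library 1 (0.0559) or library 1 labelled DDI2-KO (0.0921). All 10 hepatocyte markers were present and none was called, with a summed level of 170616 to 193867 CPM in WT and 159158 to 161748 CPM in those labelled DDI2-KO. Red blood cell markers summed to 110 and 210 CPM in WT and 79.3 and 68.3 CPM in those labelled DDI2-KO, and of the 6 listed, 5 were tested and 1, Hba-a1, was called (-1.94, adjusted p = 0.0337 from edgeR), but not without either library labelled DDI2-KO (0.196 and 0.213). Of 7 endothelial markers, Stab2 was called (-1.10, adjusted p = 0.0288 from edgeR, and 0.109 without WT library 1), and their sums were 406 to 446 CPM in WT and 386 to 418 CPM in those labelled DDI2-KO. No listed gene of bile duct, Kupffer cells, stellate cells, lymphocytes or pancreas was called, and muscle genes had 1 read in all. Over all genes tested 2.53% were called, so lists this short would hold few calls in any case. The calls therefore do not show that the mixture of cells was equal. The part of these differences in the mitochondrial counts was not tested. Ddi2 itself had 4749 and 3812 WT reads, against 4068 and 3777 in those labelled DDI2-KO. This was 141 and 123 CPM against 157 and 164 CPM, so both libraries labelled DDI2-KO lay higher. The log2 fold change was 0.28 (SE 0.17, adjusted p = 0.349 from edgeR), which was not called. Since a floxed deletion removes part of the gene, a whole-gene count does not check it.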

How the data were processed

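For each of 4 liver libraries the authors deposited a column of raw, unscaled counts of reads per Ensembl gene. The submitters' processing notes name cutadapt 1.8, STAR 2.5.2b, HTSeq 0.6.1 and GRCm38. The annotation release and strand setting are not given in the sources used here. The 5 summary lines of each file were not used as genes. Symbols, positions and transcript sequences are from GENCODE M21 (GRCm38), which held 48349 of 48709 identifiers. Labels number the libraries within each group without saying what a number marks.

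Counts were tested with edgeR 4.0.16 in R 4.3.3 (TMM, filterByExpr, robust glmQLFit, glmQLFTest, Benjamini-Hochberg), where SE is the size of the log2 fold change divided by the square root of F. The study used limma's moderated test, run here (limma 3.58.1) with DESeq2 1.42.0 among the alternatives. The edgeR fit was tested on simulated data. Between the 2 libraries of a group, chi-square over its degrees of freedom was 64.7 in WT and 34.7 in DDI2-KO, beyond sampling noise. The p-values rest on the spread between 2 libraries per group, moderated with the spread of all genes tested. Stretches of 50 and 100 bases were searched on both strands of the annotated transcripts. The members and lists were chosen with earlier results of these data known. Named were all mRNAs and rRNAs, tRNAs with a mean of at least 10 reads, 4 fixed genes and any called gene of the nuclear list for mitochondrial expression, the 5 nuclear subunits with the smallest p, the 3 nuclear copies with most reads, and checks. Genes outside this rule are said to be so where they appear, except the called subunits and markers, named because their counts are small. Intervals cover counting error only.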

Additional observations from a re-analysis of the deposited data

How the results depend on the processing

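The count of 3 called members was 3 with RLE factors, upper-quartile factors, library totals, TMM without mitochondrial genes and a mean of at least 1 CPM, and mt-Nd2, mt-Nd5 and mt-Cytb were the genes called in each of these. It was 2 with limma-voom and without robust estimation, 1 with limma-trend, 5 with DESeq2 and, without the low-count filter, 6, where the light-strand tRNAs mt-Tp and mt-Tq, with at most 9 reads in a WT library, were called higher. Leaving out a library changed which members were called. Without library 1 labelled DDI2-KO, mt-Tq, with at most 2 reads in a WT library, passed the filter through the remaining library of that label. It is therefore not read as a result. Of the nuclear genes for mitochondrial expression, 1 was called, against 7 with DESeq2, 9 without the filter, 0 with limma-voom, limma-trend or no robust estimation, and 0 to 3 without a library. With upper-quartile factors it was again 1, Tfb2m called lower in place of Nsun4. Of the nuclear-encoded subunits, 8 were called, against 25 with DESeq2, 26 without the filter and 2 to 15 without a library. With a replicate block, which assumes that equal numbers mark paired mice, 5 members were called, 4 of them lower and mt-Tp higher. As mt-Tp passed the filter through the libraries where it was high, its call is not support. Called too were 6 nuclear genes for mitochondrial expression and 20 nuclear subunits, and all genes called numbered 1108 against 346. The labels state no such pairing, and deviations of same-numbered libraries had a correlation of 0.0588 across 13699 genes. The median of the 7 mRNAs ranged from -0.90 to -0.69 over all alternatives, and without a library the difference in read share ranged from -4.93 to -3.87 percentage points, or was -2.40 when all lines of the files were the denominator. Of 31 single genes, 2 reversed without library 1 labelled DDI2-KO, mt-Ti to 0.11 (range without a library -1.19 to 0.11) and Gm13340 to -0.010 (-0.010 to 0.35), and neither was called. Over all genes, calls numbered 136 with limma-voom, 139 with limma-trend, 152 without robust estimation, 907 with DESeq2 and 1544 without the filter, and with upper-quartile factors 191 of 317 calls were lower, against 164 of 346. Where the number of calls changed, the cause was not tested. Precision is limited by having 2 libraries a group rather than by depth.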
